A study of Mus musculus with 2 samples.

Results

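Carbohydrate-responsive element-binding protein (ChREBP, encoded by Mlxipl), its partner Mlx and 5 genes that ChREBP is known to control were examined. The 5 are genes of sugar metabolism and glucose response, namely Pklr, Khk, Klf10, G6pc and Gpd1. The samples, given as pancreatic beta cells, were with and without cystathionine gamma-lyase (CSE), an enzyme that makes hydrogen sulfide. The members were chosen by name, as every gene probe on the array that carried 1 of the 7 symbols. This gave 9 probes of 55681, with 2 each for Mlxipl and Khk and 1 for each of the other members. Both samples came from C57BL/6J mice aged 6 months and fed a high-fat diet. One was wild type (CSE-WT, the control) and the other was a CSE knockout (CSE-KO). Each genotype had 1 single-colour array. The number of animals behind a sample, the way the cells were isolated and the allele that removed CSE are not stated in the labels. Both samples also held RNA of other pancreatic cells. The alpha-cell gene Gcg read 383401 units in CSE-WT and 361049 in CSE-KO. Of the insulin genes, Ins1 read 503410 and 482701 units and Ins2 332046 and 330923. Signals of different probes do not give relative RNA amounts. The acinar gene Amy2a5 read 191897 and 149025 units. Differences are therefore not assigned to beta cells alone. With 1 array per genotype there was no replicate and no test, so every difference describes these samples only.

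ChREBP is a basic helix-loop-helix leucine zipper transcription factor that responds to metabolites of glucose. It binds DNA together with Mlx, at carbohydrate response elements made of a pair of E-box-like half-sites. In liver and beta cells it switches on genes of glycolysis, fructose use and lipid synthesis when glucose is high, and a shorter isoform, ChREBP-beta, starts from a promoter upstream of that of the full-length ChREBP-alpha. Pklr encodes the liver and red-cell form of pyruvate kinase, Khk encodes ketohexokinase, the enzyme that phosphorylates fructose, and Gpd1 encodes cytosolic glycerol-3-phosphate dehydrogenase, which links glycolysis to glycerolipid synthesis and to a mitochondrial electron shuttle. G6pc encodes the catalytic subunit of the glucose-6-phosphatase of liver, and Klf10 encodes a Krüppel-like zinc finger repressor that is induced by TGF-beta and by glucose.

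The probes shown first are those on which the reading of isoforms and specificity turns. Each is a designed 60-base oligonucleotide, its mm9 coordinates are those of the array files, and all are written 5′ to 3′. Only 30 bases are shown of each probe other than the Pklr probe and the second Khk probe, which are whole. Capitals mark bases in runs of at least 16 that also occur in array probes for other genes.
Mlxipl, brighter probe, chr5:135613705-135613764, plus strand: ggcatcttgcatgaatgtagatgtgtgtgt
Mlxipl, dimmer probe, chr5:135614195-135614252, plus strand: gcatggtgaTGCACACCTTTAATCCCAGTA
Khk, brighter probe, chr5:31233555-31233614, plus strand: tgcgtctctgtatacctatctcctctctgc
Khk, dimmer probe, chr5:31229105-31229164, plus strand: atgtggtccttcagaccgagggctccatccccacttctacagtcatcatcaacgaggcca
Pklr, chr3:88948907-88949425, plus strand: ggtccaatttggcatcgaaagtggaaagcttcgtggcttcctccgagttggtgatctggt
Klf10, chr15:38224255-38224314, minus strand: catatctcagaggtttctgacatgcaaact

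The dimmer Mlxipl probe shared such a run with 4 probes of other genes in the same orientation, the longest of 19 bases, and with 3 in the opposite orientation. Runs from it also occurred in 30 of 32851 promoter windows of 300 bases, against at most 2 for any other member probe. None of the other 8 member probes shared a run of that length with a probe of another gene. The Pklr probe spans 519 bases of genome with 60 bases of sequence, so it crosses at least 1 intron. Both Mlxipl probes carry the same RefSeq accession and lie within 548 bases of each other, and neither was assigned to ChREBP-alpha or ChREBP-beta. The dimmer Khk probe is named after an Ensembl transcript, whereas the other 8 member probes matched their symbols by RefSeq accession. Where the probes lie in exons or untranslated regions was not determined, because a mm9 annotation was not used here.

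Mlxipl and Klf10 were the members that were higher in the CSE-KO sample, and the other 5 members differed by amounts that the technical spread of single spots also reaches. Of the 7 members, 2 were higher and 5 lower by any amount, where 48.7% of all 22160 measured genes were higher. None reached 2-fold, the fixed size rule used in place of a test. Among all genes, 0.718% passed 2-fold on the higher side (159 genes) and 0.884% on the lower side (196 genes), so that 44.8% of genes past 2-fold were higher, a share of 27.1% with normexp background correction and of 28.4% when quantile scaling was added. Technical spread was read from probes printed 10 times on each array, as the SD of their spot-by-spot difference at each level, here called the spot SD. Differences of more than 3 spot SDs were seen in 2 members on the higher side and 0 on the lower side. Of all genes, 11.4% lay past that mark on the higher side and 13.5% on the lower side. Taken over both sides together, the share of members past the mark was close to that of all genes. The count therefore does not set the members apart. The spot SD covers printing, hybridisation and scanning within these arrays, and says nothing about differences between animals.

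**Figure D1:**
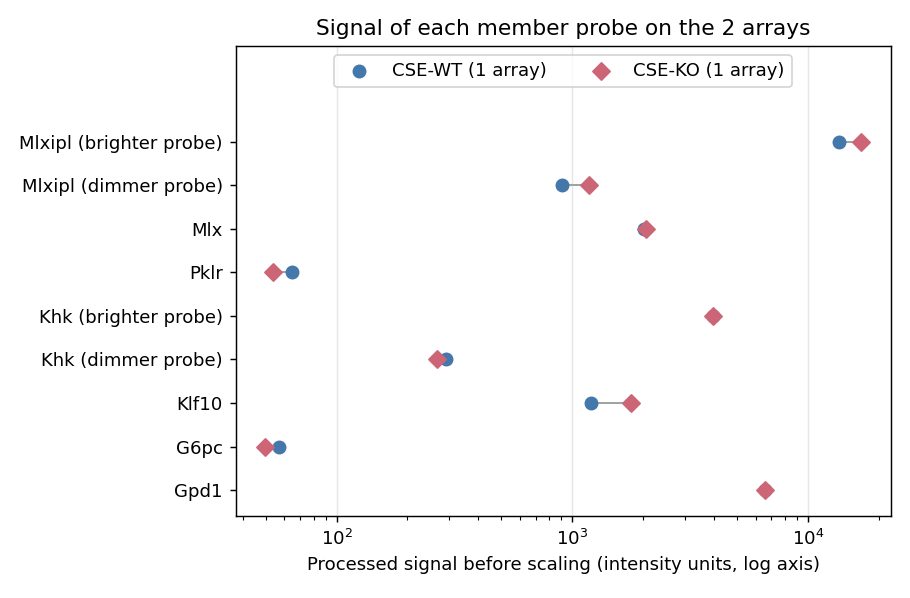
Processed signal of each of the 9 member probes, on a log axis in intensity units before scaling, for the CSE-WT array (circles) and the CSE-KO array (diamonds), 1 array each. The pairs for Mlxipl and Klf10 are set apart with CSE-KO to the right, whereas those for Mlx, Gpd1 and the brighter Khk probe lie on top of each other.

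Mlxipl, the gene of ChREBP itself, had a brighter probe that read 13517 intensity units in CSE-WT and 16776 in CSE-KO. Its dimmer probe gave 908 and 1180 units. Both were brighter in the CSE-KO sample. After each array was scaled to the 75th percentile of its gene probes (519 and 540 units), the differences on the log2 scale were 0.26 (spot SD 0.04, 1.19-fold higher) and 0.32 (spot SD 0.06, 1.25-fold higher). The probes thus differed from each other by 0.07 log2 units, against a spot SD of 0.07 for that gap. The dimmer probe is the one that shares runs of bases with probes of other genes. How much of its signal came from other RNAs was not tested, which limits it as a second reading of Mlxipl. Among all measured genes, 12.8% had a difference at least as high as that of the brighter probe. Over 11 alternative processing settings the Mlxipl difference stayed between 0.23 and 0.31. Across genes with several probes above the median level, probes of the same gene differed with an SD of 0.11 log2 units.

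Mlx, the obligate partner that lets ChREBP bind DNA, gave 2017 units on CSE-WT and 2048 on CSE-KO. These values scaled to a difference of -0.03 log2 units, within 1 spot SD (0.05). Its sign was not settled, since the difference ran from -0.07 to 0.00 over the settings and was positive in 1 of 11. The probe lies on the plus strand of chromosome 11, at chr11:100952426-100952485 (mm9).

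Klf10 showed the largest difference among the members. Its signal went from 1202 units in CSE-WT to 1780 units in CSE-KO. The scaled difference was 0.51 log2 units (spot SD 0.05), which is 1.43-fold higher, and 4.12% of all measured genes had a difference at least as high. It lay between 0.43 and 0.55 over the 11 settings. Klf10 had 1 probe, so no second probe checks this value.

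**Figure D2:**
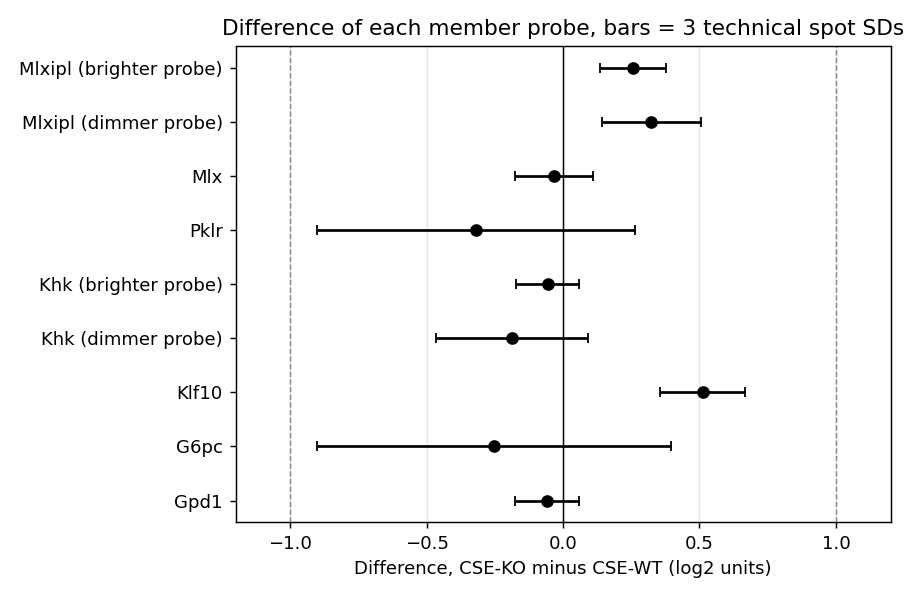
Difference of each member probe, CSE-KO minus CSE-WT in log2 units, with bars of 3 technical spot SDs either way and dashed lines at 2-fold. The 3 probes of Mlxipl and Klf10 lie clear of 0 with their bars, and the bars of the other 6 probes cross it.

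The enzymes of glycolysis and fructose use among the members were not higher in the CSE-KO sample. Pklr was dim, at 64.6 units on CSE-WT and 53.8 on CSE-KO. That is 14.9 and 15.7 times the 95th percentile of the negative-control spots, so it was above background on both arrays. Its difference was -0.32 log2 units with a spot SD of 0.19, which is less than 3 spot SDs, and it ranged from -0.38 to -0.13 over the settings. The interval of 3 spot SDs ran from -0.90 to 0.26, so a difference as high as that of Klf10 lay outside it and one as high as that of the brighter Mlxipl probe lay just inside. The probe was not assigned to the liver form or the red-cell form of the enzyme.

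Khk gave 3967 units on CSE-WT and 3965 on CSE-KO at its brighter probe, and 292 and 267 units at its dimmer one. The scaled differences were -0.06 (spot SD 0.04) and -0.19 (spot SD 0.09). Both lay below 0 and within 3 spot SDs, and the gap of 0.13 between them compares with a spot SD of 0.10 for that gap. When measured probes of a gene were averaged, Khk came to -0.12. Khk is known to be spliced into an A and a C form, and which of them each probe detects was not determined.

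Gpd1 was bright and close to equal on the arrays, at 6569 units on CSE-WT and 6556 on CSE-KO. Its scaled difference was -0.06 log2 units (spot SD 0.04), and 3 spot SDs spanned -0.17 to 0.06. This technical interval was narrow, and differences of the size of those in Mlxipl and Klf10 lay outside it. It leaves out the spread between probes of a gene, with an SD of 0.11 log2 units above the median level. Differences between animals are left out too, so it does not bound the change in Gpd1 RNA. The probe is at chr15:99555334-99555393 on the plus strand (mm9).

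G6pc, which liver expresses and beta cells largely replace by the related G6pc2, was as dim as Pklr. It gave 57.2 units on CSE-WT and 49.9 on CSE-KO, a difference of -0.25 log2 units with a spot SD of 0.22. At that level 3 spot SDs spanned -0.90 to 0.39, so that little could be resolved. Albumin (Alb), a hepatocyte gene, was at a like brightness with 60.4 and 37.8 units, and its part in the Pklr and G6pc signals was not tested. The G6pc probe lies at chr11:101238947-101239006 on the plus strand (mm9).

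**Figure D3:**
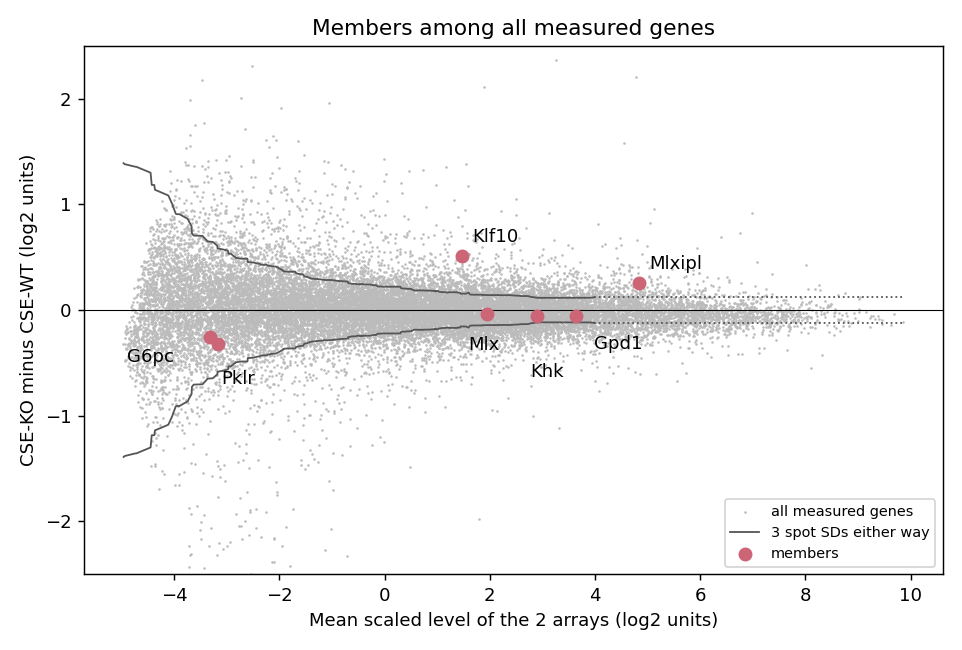
Difference (CSE-KO minus CSE-WT, log2 units) against mean scaled level for all measured genes in grey, with the members in red and lines at 3 spot SDs either way, dotted where the level is above that of the probes printed 10 times. Klf10 and Mlxipl lie above the lines and the other 5 members between them, and 45 genes beyond 2.5 log2 units are not drawn.

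Of all gene probes, 57.0% were above background in CSE-WT and 59.6% in CSE-KO. No member spot lay in a bright local area of either array. The median difference of the gene spots within 3 rows and 3 columns of each member spot, relative to that of the array, lay between -0.11 and 0.11 log2 units. Cth, the gene of CSE, did not pass the background flag in either sample, with 13.5 and 12.8 units at its 2 probes on CSE-WT and 3.15 and 3.68 on CSE-KO, so it gives no firm check of the genotype labels.

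The known binding element of ChREBP was looked for in RefSeq promoter windows (build GRCm38.p6), which run from 250 bases before to 50 after each gene start. Of the members, 5 had such windows, 7 windows in all, with 2 starts each for Mlxipl and Pklr. Entries for Klf10 and Gpd1 are missing. The motifs searched, on both strands, were the E-box CACGTG and the paired half-sites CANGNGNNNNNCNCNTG, whose matches can overlap. The E-box was present in 7.15% of all 32851 windows and the paired half-sites in 0.557%. The windows that held a match are shown, with the match in capitals. The first 2 sequences are the 250 bases before the downstream Pklr start and before the upstream Mlxipl start, and the last 2 are 30 bases around the match.
Pklr, chr3:89136373-89136622, plus strand: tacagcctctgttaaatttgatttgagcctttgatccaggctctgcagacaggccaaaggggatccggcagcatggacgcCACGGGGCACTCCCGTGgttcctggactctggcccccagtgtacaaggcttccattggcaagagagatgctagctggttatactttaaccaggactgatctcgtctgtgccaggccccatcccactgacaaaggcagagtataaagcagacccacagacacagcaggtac
Mlxipl, chr5:135089640-135089889, plus strand: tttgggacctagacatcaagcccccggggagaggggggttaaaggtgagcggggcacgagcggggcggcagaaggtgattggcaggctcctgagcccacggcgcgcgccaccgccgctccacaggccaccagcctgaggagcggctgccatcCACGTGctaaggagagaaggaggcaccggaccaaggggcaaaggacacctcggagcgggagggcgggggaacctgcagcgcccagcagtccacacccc
Khk, chr5:30921476-30921505, plus strand: agcgttccccgtCACGTGacaccgttaatc
Mlx, chr11:101087238-101087267, plus strand: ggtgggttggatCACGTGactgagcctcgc

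Paired half-sites were found in 1 member window, 170 bases before the downstream Pklr start, as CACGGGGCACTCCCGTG. The E-box lay 98 bases before the upstream Mlxipl start, 71 before the Khk start and 40 before the Mlx start. The G6pc window, the upstream Pklr window and the downstream Mlxipl window held neither motif. A match describes the letters only. Among the members with a match Mlxipl was higher in CSE-KO, while the differences of Pklr, Khk and Mlx were within 3 spot SDs.

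Other genes that have been linked to ChREBP as targets were mostly higher in the CSE-KO sample, many by small amounts. Of 33 measured genes on this list, 26 were higher and 7 lower, where 48.7% of all genes were higher. The number higher was 21 under spike-in scaling, where 42.5% of all genes were higher. Under scaling to the array medians it was 27, and the share of all genes was 56.2%. The list was chosen with earlier results of these data known, so its counts are not independent of them. Past 3 spot SDs, 9 were higher and 3 lower, against 11.4% and 13.5% of all genes, and none reached 2-fold. The median was 0.07 log2 units, against -0.01 for all genes, and lay between 0.04 and 0.10 over the 11 settings. Gckr and Nr0b2 were on the array but not above background on both samples.

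Txnip and Arrdc4, arrestin-domain genes that respond strongly to glucose, were both higher. Txnip went from 12997 to 26280 units at one probe and from 3610 to 7252 at the other, differences of 0.96 and 0.95 log2 units. Arrdc4 differed by 0.36 at its brighter probe (642 and 857 units) and by more at its dimmer one, where 7 spots kept on both arrays gave 0.92 ± 0.06 (SD over spots of 1 array pair, not over samples). All 7 of those spots were higher in CSE-KO. The G-protein regulator Rgs16 went from 3305 to 6490 units (1.89-fold), and Arntl, the clock transcription factor BMAL1, from 335 to 648 units (1.86-fold). Pfkfb3, which makes the activator of phosphofructokinase fructose 2,6-bisphosphate, differed by 0.65 at its 1 measured probe.

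Lipid synthesis genes on the same list showed smaller values in both directions. Thrsp and Mid1ip1, which promote fatty acid synthesis, differed by 0.30 and 0.16 and were past 3 spot SDs. Fasn (0.19), Acaca (0.04), Acly (0.02), Scd1 (0.04) and Srebf1 (0.10) were within them. The fatty acid elongase gene Elovl6 was lower (-0.43, from 2707 to 2091 units), and malic enzyme Me1 (-0.17, its 3 probes from -0.25 to 0.00) and the glycogen-targeting subunit Ppp1r3b (-0.18) were also lower. Slc2a2, the glucose transporter GLUT2 of beta cells, differed by 0.07, within 3 spot SDs.

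**Figure D4:**
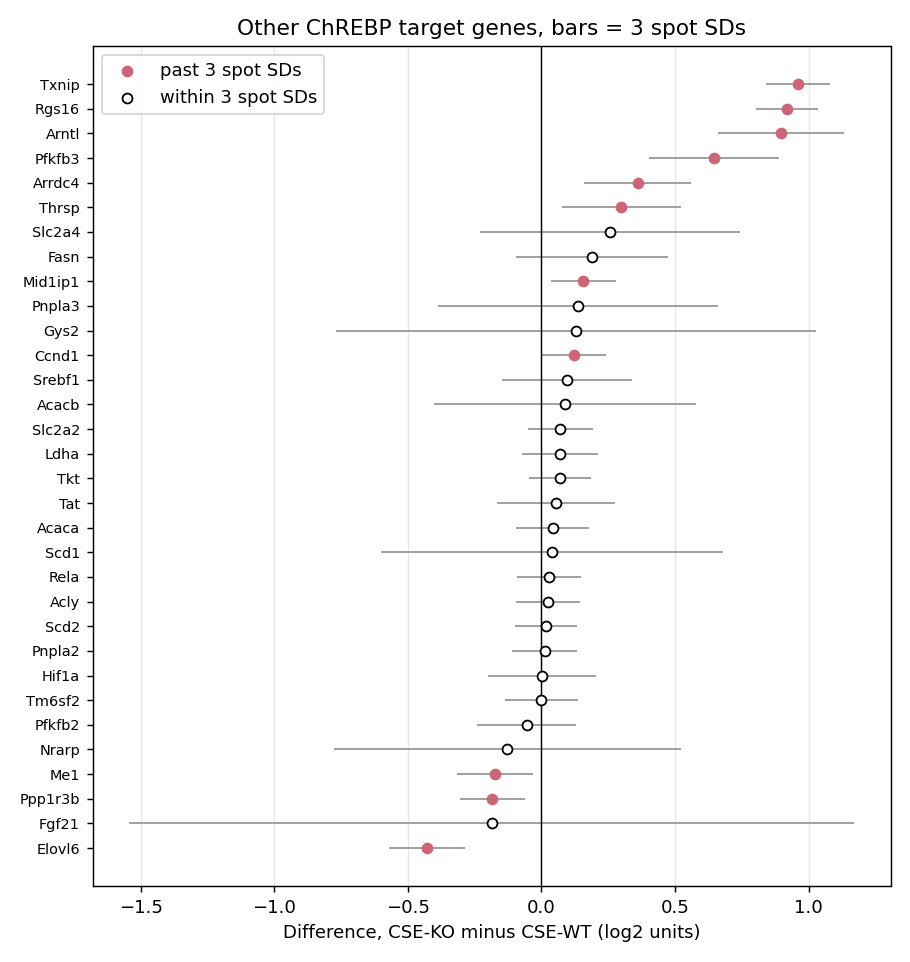
Difference (CSE-KO minus CSE-WT, log2 units) of 32 of the 33 measured genes on the list of other ChREBP targets, with bars of 3 spot SDs; filled points lie past 3 spot SDs. Txnip, Rgs16 and Arntl lie near 0.9, most genes lie close to 0, and Elovl6 is the lowest.

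Of the list's 27 genes with a promoter window, 8 held an E-box and 1 (Pfkfb2) held paired half-sites. These genes had 35 windows in all. Over all 32851 windows, 7.15% held an E-box and 0.557% held paired half-sites. Those shares are per window, whereas the counts of 8 and 1 are of genes with a match in any of their windows. The shares and the counts are therefore not directly comparable. The genes with an E-box were Arrdc4, Fgf21, Hif1a, Ldha, Nr0b2, Nrarp, Pfkfb2 and Pfkfb3. Of these, Arrdc4 and Pfkfb3 were higher past 3 spot SDs. Fgf21 (-0.19), Nrarp (-0.13), Pfkfb2 (-0.06), Hif1a (0.00) and Ldha (0.07 at its brightest probe) were within them, and Nr0b2 was not measured.

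The transcription factors that share Mlx or Max as a partner did not move together. Of 11 measured, 5 were higher and 6 lower. Their median difference, -0.03, changed sign under 2 of the 11 settings. Mlxip, which encodes the ChREBP relative MondoA, was higher at both probes (0.36 and 0.70), past 3 spot SDs at the brighter one. Mxd3, a Max-binding repressor expressed in dividing cells, was the 1 gene past 2-fold (1.17 log2 units), at the dim levels of 27.0 and 63.4 units. Mnt, another Max-binding repressor, was lower (-0.27, from 5642 to 4877 units).

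Regulators of ChREBP were likewise divided, 10 higher and 10 lower of 20. Ogt, which attaches O-GlcNAc to ChREBP, was higher at both probes (0.37 and 0.58), past 3 spot SDs, and Mgea5, whose product removes that sugar, was higher too (0.36). Rxra differed by 0.54 at its brighter probe and by 0.05 at its other one. The coactivator gene Ppargc1b was lower at its 1 probe (-0.73). Hnf4a, a hepatic and islet nuclear receptor, was lower (-0.31), as was the catalytic AMP kinase gene Prkaa1 (-0.26), and Prkaa2 gave -0.24, just within 3 spot SDs.

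Glycolysis genes outside the members lay around 0. Of 24 measured, 9 were higher and 15 lower, with 4 past 3 spot SDs on each side. Over all genes, 11.4% lay past that mark on the higher side and 13.5% on the lower side. The median of the 24 was -0.03, which turned to 0.00 under scaling to the array medians. Muscle-type pyruvate kinase (listed as Pkm2) differed by 0.09. Lactate dehydrogenase A (Ldha) differed by 0.07 at its brightest probe and by 0.24 and 0.21 at dimmer ones, each within 3 spot SDs. Pfkfb3, already described, was past 3 spot SDs, and Pfkfb1 (0.35) was within them. In fructose and polyol handling 5 genes were higher and 6 lower of 11, with 1 past 3 spot SDs on the higher side and 0 on the lower side. The fructose transporter gene Slc2a5 differed by -0.03 and Dak, the kinase that acts on glyceraldehyde, by 0.08.

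Genes around glucose-6-phosphate were lower in 11 of 16, with a median of -0.05. The coactivator of gluconeogenesis Ppargc1a was lower at both probes (-0.88 each, from 384 to 218 units at the brighter). G6pc2, the islet glucose-6-phosphatase, gave 122238 and 116903 units, a difference of -0.12, just within 3 spot SDs. The forkhead factor Foxo1 was higher at its brighter probe (0.21) and within 3 spot SDs at the other (0.07).

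Around Gpd1, genes of glycerol phosphate handling were higher in 7 of 13 (median 0.04). Gpd2, the mitochondrial partner in the glycerol phosphate shuttle, differed by 0.09, within 3 spot SDs. Lpin1, a phosphatidate phosphatase, was higher at both probes (0.46 and 0.45), past 3 spot SDs at the brighter one. The cytosolic aspartate aminotransferase gene Got1 was lower (-0.34), and the spots around it had a median of -0.22. Gpat2, a dim gene, differed by 0.96, which is within 3 spot SDs.

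Klf10 stood highest among 16 measured Krüppel-like and TGF-beta pathway genes, of which 7 were higher and 9 lower (median 0.00). Klf11, its nearest relative, differed by 0.23 and was within 3 spot SDs, but the spots around it had a median of -0.30. For Klf10 that median was 0.07. Tgfb1 differed by 0.34, also within 3 spot SDs. Klf5 was higher (0.30). Smad7, a TGF-beta target that feeds back on the pathway, was lower (-0.34), as were Klf15 (-0.35), Klf3 (-0.28) and Klf9 (-0.16).

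Markers of other pancreatic cells moved alongside these values. In bulk RNA, fewer cells of a type and less RNA per cell cannot be told apart. For the counts that follow, 11.4% of all genes were past 3 spot SDs on the higher side and 13.5% on the lower side. Beta-cell markers were higher in 4 and lower in 5 of 9, with 0 past 3 spot SDs on the higher side and 2 on the lower side, Pdx1 (-0.21) and Iapp (-0.16). Ins1 (-0.12) and Ins2 (-0.06) were within 3 spot SDs, and the summed intensity of the beta-cell markers went from 1370630 to 1277200 units. Alpha-cell markers were lower in 6 of 6 past 3 spot SDs (median -0.50), with Gcg at -0.14, Irx1 at -0.66 and Irx2 at -0.62. Gcg was just past the mark at -3.4 spot SDs, where Ins1 was just within it at -2.9. The summed intensity of the alpha-cell markers went from 596800 to 528772 units at a common scale. Stellate markers were higher in 4 of 4 measured (Lum was not measured), with Col3a1 at 1.04, and their summed intensity went from 534 to 890 units. Macrophage markers were higher in 4 of 5 (10923 to 12984 units), with C1qa at 0.45 and Lyz2 at -0.41, while Adgre1 was not matched to a symbol of the files. Acinar markers were higher in 3 of 7 and lower in 4 (379800 to 331625 units), with Amy2a5 at -0.42 and Ptf1a at -2.24, and the spots around Ptf1a had a median of -0.30. The part of these cells in the Mlxipl and Klf10 differences was not tested.

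Of the hepatocyte markers 5 of 6 were measured, 1 higher and 4 lower, with Apoa1 not above background on both arrays; they include Ttr, which alpha cells also express, and their summed intensity went from 211384 to 179156 units. Among adipocyte markers Fabp4 was measured (-0.45, 1705 to 1252 units at a common scale), and Adipoq, Plin1, Cidec and Lep were not above background on both arrays. Ductal markers were higher in 3 of 3 measured (765 to 1054 units, Spp1 at 0.53), without Cftr and Sox9, and endothelial markers in 3 of 4 (35941 to 36496 units). Delta-cell markers were higher in 1 of 3 (267055 to 251893 units, Sst at -0.05).

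**Figure D5:**
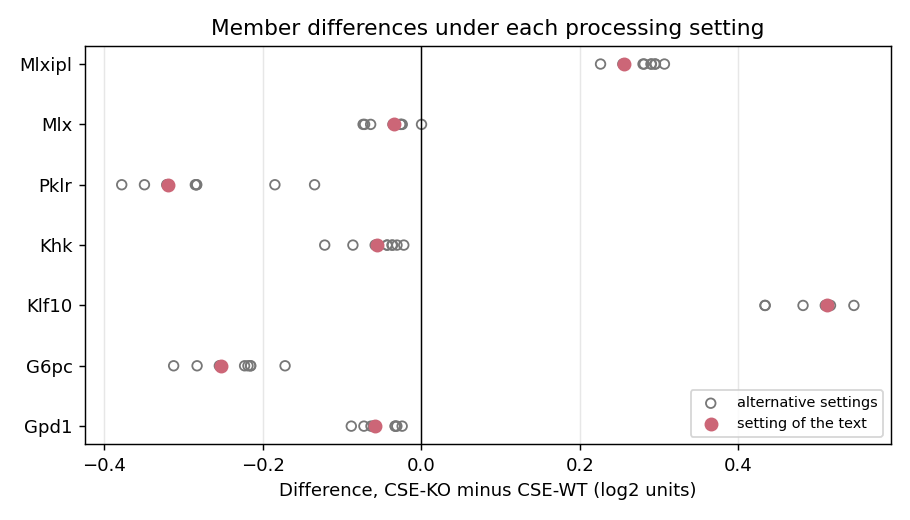
Difference of each member gene (CSE-KO minus CSE-WT, log2 units) under the setting of the text (filled) and the 11 alternative settings (open). Mlxipl and Klf10 lie right of 0 and Pklr, Khk, G6pc and Gpd1 left of 0 under all of them, while Mlx touches 0.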

How the data were processed

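Total RNA was amplified and labelled with Cy3, per the labels' protocols. The authors deposited Agilent Feature Extraction files with an intensity for each of 62976 spots per array (processed signal, version 10.7.1.1 per the file headers, whereas the submitters' processing notes name 9.5.1.1), and a table of linear probe intensities with nearly equal sorted columns, whose steps are not given in the sources used here. Outlier-flagged spots were left out and no spot was saturated. The log2 processed signal was averaged per probe and centred, array by array, on its 75th percentile among gene probes. A probe was measured when well above background on both arrays, and a gene took its brightest measured probe. The spot SD is the median SD over 41 neighbouring probes in level, from 379 probes printed 10 times, and is held constant above a level of 3.99. It was 0.19 at a scaled level of -3, 0.07 at 0 and 0.04 at 3. The rules were run on data simulated with noise of the same spot SD. Such data cannot show how the mark of 3 spot SDs behaves for differences between animals. Tools were Python 3.11.15, pandas 2.3.3, R 4.3.3 and limma 3.58.1. Named genes were the members, a fixed set, and in each list the 3 largest differences and any past 2-fold; other listed genes named in the text were chosen after their values were seen, and a few genes under this rule are not reported here. The members and lists were chosen with earlier results of these data known. The number of arrays limits the precision.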

Additional observations from a re-analysis of the deposited data

How the results depend on the processing

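No paired analysis was possible because each genotype had 1 array, and no array could be left out. The 11 alternatives changed the scaling (array median, quantile, cyclic loess, spike-in probes), the background correction (normexp, offset 50), the source (the authors' value table), the filter on dim probes, the gene level, outlier spots and local patches. Mlxipl and Klf10 were higher past 3 spot SDs under all 11. On the lower side, 1 member (Khk) passed 3 spot SDs of its brighter probe when probes were averaged. Of 77 member values, 4 moved by more than 1 spot SD. Genes at least 2-fold higher numbered 36 with normexp and 38 with normexp and quantile scaling, and 1129 without a filter on dim probes, which tests more genes. Genes at least 2-fold lower numbered 97, 96 and 1437 under the same settings. The cause of the normexp counts was not tested. Signal over background limits Pklr and G6pc, whose spot SDs are about 0.2 log2 units.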
